A study of Mus musculus with 6 samples.

Results

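Major histocompatibility complex (MHC) class I molecules show peptides from inside the cell to cytotoxic T cells and natural killer cells. The genes described here are 10 genes of that machinery, taken by symbol from the 41255 genes listed in the expression table, and all 10 were found. They were H2-K1 and H2-D1 (classical heavy chains), H2-T23 and H2-Q7 (nonclassical heavy chains), B2m (the invariant light chain, beta-2 microglobulin), Tap1 and Tap2 (the peptide transporter of the endoplasmic reticulum, ER), Tapbp (tapasin, which holds empty class I molecules at the transporter), Erap1 (an ER aminopeptidase that trims peptides) and Nlrc5 (the transactivator of class I genes). All 10 passed the filter on low values, a mean of at least 10 normalized counts (reads divided by a size factor of the library), and the fewest reads for a member in any library was 30.

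The mRNA was from Ba/F3, a lymphoid line of the mouse whose growth depends on interleukin-3. Cells of the WT group (clones 28, 29 and 36) expressed a human RPL10 cDNA in its wild type form from a retroviral vector, and cells of the R98S group (clones 11, 13 and 35) expressed the R98S mutant found in T-cell acute lymphoblastic leukemia. All 6 cultures also carried a short hairpin RNA against mouse Rpl10, each was grown from 1 cell, and all were exposed briefly to cycloheximide before lysis. Each library therefore stands for 1 clone, no parental cells were included, and a difference between the genotypes cannot be told apart from a difference between the clones that were picked. Interval and p-value both describe the spread between these 3 and 3 clones, with the variance of each gene drawn towards that of genes at a similar level.

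Class I heavy chains bind a peptide in a groove and leave the ER only when paired with beta-2 microglobulin. The peptides are cut in the cytosol by the proteasome, whose composition changes in cells exposed to interferon, and are pumped into the ER by the Tap1 and Tap2 pair. NLRC5 acts on the promoters of the heavy chain genes, B2m and Tap1 through a module of short elements known as S, X and Y boxes, and NF-kappaB and interferon response elements lie close by in the classical genes.

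Libraries held between 21786776 and 24204991 reads on genes. Normalized read counts of Rpl10, the target of the hairpin in every clone, lay between 1900.5 and 3156 in WT and between 1883 and 3028 in R98S clones, with a log2 fold change of -0.066 (adjusted p = 0.871 by limma). The authors chose cultures by their knock-down of mouse Rpl10, measured by qPCR. Whether reads of the human RPL10 cDNA were counted on Rpl10 was not tested. The cells expressed the interleukin-3 receptor beta chain Csf2rb (46530 to 60303 normalized counts in WT and 67790 to 83429 in R98S clones) and Cd79a (996 to 1507 over all clones). Of 10 markers of B cell precursors (summed level 1294 to 1408 in WT and 1643 to 1963 in R98S clones) only Cd79a and Cd79b passed the filter, while Pax5 and Rag1 had at most 2.15 and 1.88 normalized counts. Markers of T cells (1 of 5 tested, Cd3d, summed level 14.0 to 65.0 in WT and 46.9 to 92.9 in R98S), of macrophages and dendritic cells (1 of 5 listed markers tested, Cd14, 23.02 to 328 and 8.44 to 18.4) and of fibroblasts (0 of 5 tested, 12.3 to 24.7 and 10.18 to 21.4) were low. For mast cells 3 of 5 markers were tested (172 to 251 in WT and 71.4 to 529 in R98S), with Fcer1a at 0 in all libraries. For erythroid cells 1 of 5 was tested, Hba-a1 (summed level 11.8 to 75.1 and 2.78 to 12.2), with Hbb-bt at 0. Of the markers examined, Csf2rb, Csf2rb2, Cd79b and Cd3d were called higher and Ptprc and Hba-a1 lower in R98S clones. Over all tested genes 10.7% were called higher and 13.1% lower. Hba-a1 passed the filter only through WT clones, so that it had to differ. The part of such markers in the results was not tested.

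Of the 10 members, 7 lie on chromosome 17 in the MHC, and B2m, Erap1 and Nlrc5 lie on chromosomes 2, 13 and 8. RefSeq promoter windows (GRCm38.p6, 250 bases before to 50 bases after the start) were at hand for 8 members. No entry was at hand for Tap2 and Nlrc5. The windows of 5 members are shown, those of both classical heavy chains and the light chain, whose groups did not differ past the threshold, and those of H2-T23 and Tapbp, which were higher in R98S clones. Capitals mark matches on either strand to CCAAT (the core of the Y box), TGACG (the core of the X2 box), GAAA followed after any pair of bases by GAAA (the core of the interferon-stimulated response element) or GGATTCC (the middle of the kappaB site of the class I enhancer).
H2-K1, chr17:34000284-34000583, minus strand: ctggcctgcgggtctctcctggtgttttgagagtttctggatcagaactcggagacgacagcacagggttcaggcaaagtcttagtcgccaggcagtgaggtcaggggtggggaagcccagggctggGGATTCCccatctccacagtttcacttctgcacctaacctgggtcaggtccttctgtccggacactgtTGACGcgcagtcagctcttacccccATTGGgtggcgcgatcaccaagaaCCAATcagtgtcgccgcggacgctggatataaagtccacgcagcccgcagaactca
H2-D1, chr17:35262844-35263143, plus strand: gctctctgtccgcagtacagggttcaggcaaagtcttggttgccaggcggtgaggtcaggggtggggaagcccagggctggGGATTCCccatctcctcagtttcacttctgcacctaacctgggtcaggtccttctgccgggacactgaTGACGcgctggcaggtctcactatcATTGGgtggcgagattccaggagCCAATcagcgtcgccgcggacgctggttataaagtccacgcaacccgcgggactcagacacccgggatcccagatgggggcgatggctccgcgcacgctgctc
B2m, chr2:122147437-122147736, plus strand: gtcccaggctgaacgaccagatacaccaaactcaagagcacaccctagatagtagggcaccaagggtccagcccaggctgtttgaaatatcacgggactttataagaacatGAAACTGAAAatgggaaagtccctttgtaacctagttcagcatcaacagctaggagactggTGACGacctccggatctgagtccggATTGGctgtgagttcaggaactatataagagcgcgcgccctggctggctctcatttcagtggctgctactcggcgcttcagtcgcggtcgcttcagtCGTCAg
H2-T23, chr17:36032652-36032951, minus strand: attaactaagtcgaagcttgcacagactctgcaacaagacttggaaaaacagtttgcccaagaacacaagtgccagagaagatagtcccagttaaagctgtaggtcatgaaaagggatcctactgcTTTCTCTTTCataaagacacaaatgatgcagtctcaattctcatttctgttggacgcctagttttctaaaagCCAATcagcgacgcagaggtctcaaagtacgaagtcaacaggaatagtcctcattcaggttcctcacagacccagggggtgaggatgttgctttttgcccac
Tapbp, chr17:33919228-33919527, plus strand: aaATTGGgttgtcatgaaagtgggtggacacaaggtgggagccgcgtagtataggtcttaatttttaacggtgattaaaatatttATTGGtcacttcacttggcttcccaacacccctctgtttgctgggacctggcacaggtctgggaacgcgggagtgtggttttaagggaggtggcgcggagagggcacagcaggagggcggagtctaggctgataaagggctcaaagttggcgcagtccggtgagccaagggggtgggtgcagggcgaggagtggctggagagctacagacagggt

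The kappaB core stood in the windows of H2-K1, H2-D1 and H2-Q7, starting 123, 169 and 131 bases before the start, and in 3.79% of the 32851 promoter windows of the whole table. That pattern was taken from the class I enhancer itself, so matches in heavy chain genes were favoured by the choice and are no test of enrichment. CCAAT was found in 7 of the 8 members with a window and TGACG in 5, against 37.4% and 20.8% of all windows. Both of these cores were likewise chosen as elements of class I promoters. GAAA repeated after any pair of bases was found in 3 members, B2m, Erap1 and H2-T23, against 3.44% of all windows. Other forms of the interferon response element were not searched. H2-T23 and Tapbp both had CCAAT and neither had TGACG or the kappaB core. Erap1, which was not called, lacked TGACG and the kappaB core as well, and B2m and Tap1, also not called, lacked the kappaB core. The window of Tapbp lies inside the annotated span of the gene (chr17:33915899-33929292), away from the start used for its position on the chromosome. The second H2-K1 window in the table starts 14 bases away and held the same matches. A match describes these letters only.

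In R98S cells 3 of the 10 members were called higher (30%) and 0 were called lower, with 1 called higher when WT clone 28 was left out and 2 when WT clone 29 was left out. Over all 11550 tested genes 23.9% were called (10.7% higher and 13.1% lower), at a limma adjusted p under 0.1. None of the members was lower at an unadjusted p under 0.05 either, and edgeR and DESeq2 on the recovered reads also called 3 higher and 0 lower. H2-T23, Tapbp and Tap2 were the 3, with means 1.89, 1.53 and 1.37 times those of WT cells. The log2 fold change was positive for 9 members and negative for Nlrc5, with a median of 0.20 over the members and -0.011 over all tested genes. The groups did not overlap for 4 members, the 3 called genes and H2-K1, all higher in R98S, while 37.3% of all tested genes showed no overlap (18.1% higher and 19.2% lower in R98S). As these are bulk cultures, more RNA per cell and more expressing cells cannot be told apart.

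**Figure D1:**
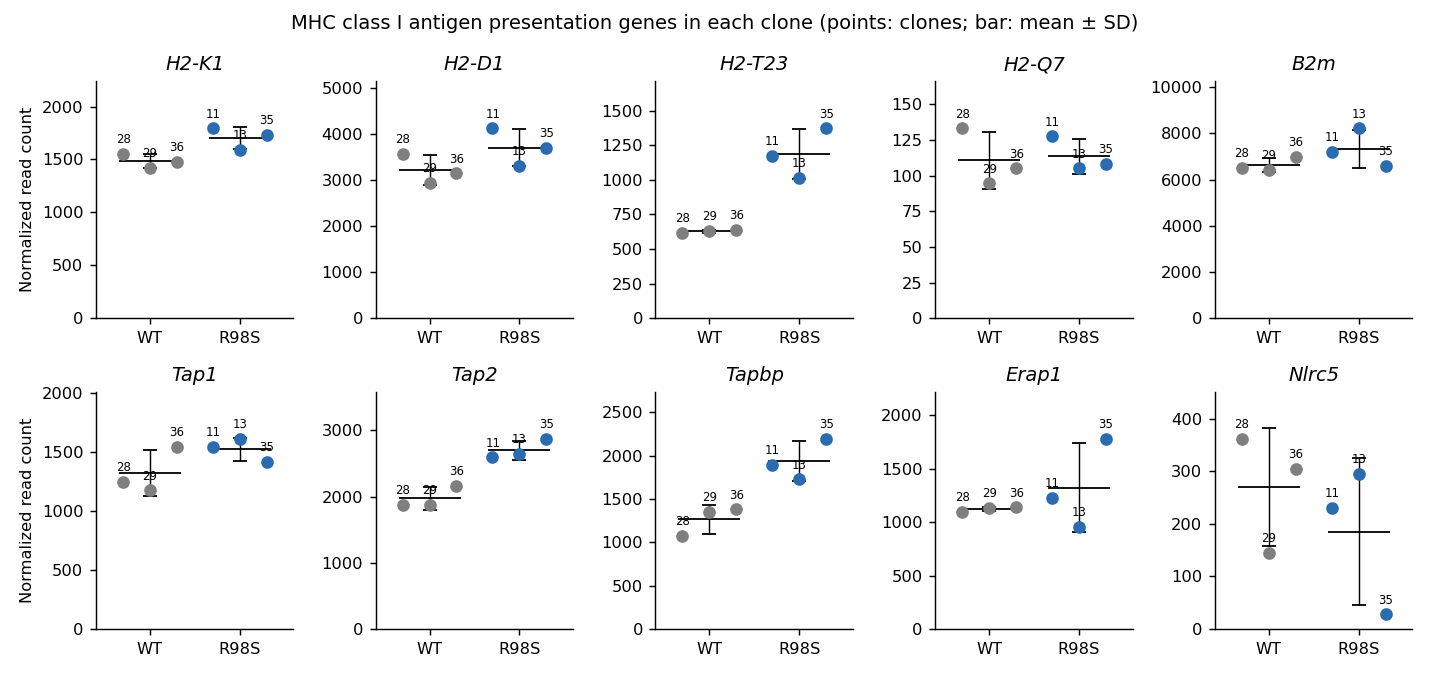
Normalized read count (vertical axes, from 0) of the 10 members in each clone, with WT clones in grey and R98S clones in blue, clone numbers above the points, and the mean ± SD of each group (n = 3) in black. The groups do not overlap for H2-T23, Tap2, Tapbp and H2-K1, and Nlrc5 falls to 27.8 in R98S clone 35.

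H2-T23 encodes Qa-1, a nonclassical heavy chain that presents leader peptides of other class I molecules to the CD94/NKG2 receptors of natural killer cells. The gene (chr17:36029773-36032855, minus strand, GRCm38) stood at 617, 629.7 and 638 normalized counts in clones 28, 29 and 36 (WT). R98S clones 11, 13 and 35 had 1176, 1016 and 1371. Every R98S clone was above every WT clone, and the WT clones lay within a narrow range. The mean rose from 629 ± 10.55 to 1187 ± 178 (SD, n = 3), which is 0.91 on the log2 scale (SE 0.14, adjusted p = 0.00651 by limma). The call held in all 17 alternative fits, with log2 fold changes from 0.73 to 1.01.

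Tapbp (chr17:33915899-33929292, plus strand) stood at 1070.1, 1348 and 1379 normalized counts in clones 28, 29 and 36 (WT) and at 1895, 1726 and 2189.9 in clones 11, 13 and 35 (R98S). The lowest R98S clone lay above the highest WT clone. The mean rose from 1266 ± 170.02 to 1937 ± 235 (SD, n = 3), which is 0.62 on the log2 scale (SE 0.14, adjusted p = 0.0269 by limma). Without WT clone 28 the log2 fold change was 0.50 and the adjusted p 0.102. Tapbp shares 149 exonic bases with Zbtb22 on the same strand, and Zbtb22 fell from 808 ± 107 to 535 ± 68.0 (-0.59 on the log2 scale, adjusted p = 0.0389 by limma).

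Tap2 (chr17:34203527-34216321, plus strand) stood at 1878, 1869.9 and 2165 normalized counts in clones 28, 29 and 36 (WT) and at 2589.5, 2639 and 2866 in clones 11, 13 and 35 (R98S). Again the groups did not overlap. The mean rose from 1971 ± 168 to 2698 ± 147 (SD, n = 3), which is 0.46 on the log2 scale (SE 0.11, adjusted p = 0.0281 by limma). The call was lost without WT clone 28 (0.42, adjusted p = 0.124) and without WT clone 29 (0.42, adjusted p = 0.104). With the median difference of its 30 nearest tested neighbours subtracted, the log2 fold change was 0.26 and the call held (adjusted p = 0.0933).

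Tap1 (chr17:34187553-34197225, plus strand) encodes the partner of Tap2 in the transporter, and did not pass the threshold. WT clones 28, 29 and 36 had 1250.3, 1175 and 1542 normalized counts, and R98S clones 11, 13 and 35 had 1541.5, 1609.5 and 1416. WT clone 36 lay within the range of the R98S clones. The log2 fold change was 0.21 (95% interval -0.092 to 0.51, adjusted p = 0.309 by limma), so the interval included both no change and the size seen for Tap2. Tap1 shares 212 exonic bases with Psmb9 on the opposite strand. Psmb9 had a log2 fold change of 0.48 (adjusted p = 0.109 by limma).

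The classical heavy chains and the light chain had means slightly above those of WT cells, by amounts that did not pass the threshold. H2-K1 (chr17:33996017-34000347, minus strand) stood at 1554, 1419 and 1476 normalized counts in clones 28, 29 and 36 (WT) and at 1793, 1591 and 1728 in clones 11, 13 and 35 (R98S). The groups did not overlap, but the gap between WT clone 28 and R98S clone 13 was small. The means were 1483 ± 68.2 and 1704 ± 103 (SD, n = 3), which is 0.20 on the log2 scale (95% interval -0.039 to 0.44, adjusted p = 0.227 by limma).

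H2-D1 (chr17:35262730-35267499, plus strand) stood at 3573, 2942 and 3147 normalized counts in clones 28, 29 and 36 (WT) and at 4123, 3305 and 3694 in clones 11, 13 and 35 (R98S). WT clone 28 lay above R98S clone 13. The means were 3221 ± 322 and 3707 ± 409.5 (SD, n = 3), which is 0.20 on the log2 scale (95% interval -0.081 to 0.48, adjusted p = 0.298 by limma).

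B2m (chr2:122147686-122153083, plus strand) stood at 6512, 6412 and 6961 normalized counts in clones 28, 29 and 36 (WT) and at 7209, 8208 and 6585 in clones 11, 13 and 35 (R98S). R98S clone 35 lay within the WT range. The means were 6628 ± 292 and 7334 ± 818 (SD, n = 3), which is 0.14 on the log2 scale (95% interval -0.11 to 0.40, adjusted p = 0.422 by limma).

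H2-Q7 (chr17:35439155-35443773, plus strand) encodes Qa-2, a nonclassical heavy chain that is held to the membrane by a lipid anchor. Its mean normalized count was the lowest of the members, with 133, 94.6 and 105 in clones 28, 29 and 36 (WT) and 128, 105 and 108 in clones 11, 13 and 35 (R98S). The groups overlapped throughout. The log2 fold change was 0.044 (95% interval -0.45 to 0.53, adjusted p = 0.909 by limma).

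**Figure D2:**
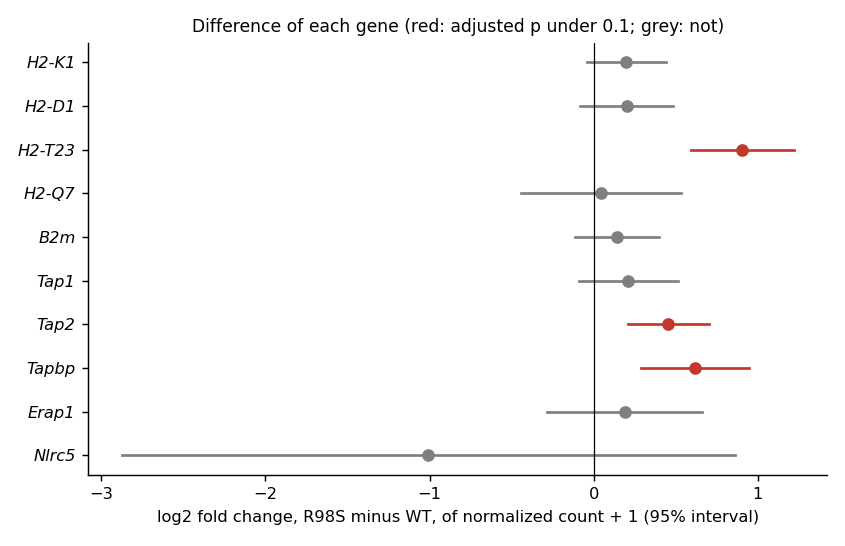
Log2 fold change (horizontal axis, R98S minus WT, of normalized count + 1) of each member with its 95% interval from limma, in red where the adjusted p was under 0.1 and in grey elsewhere. H2-T23 (0.91), Tapbp (0.62) and Tap2 (0.46) lie right of 0, and the interval of Nlrc5 runs from -2.88 to 0.86.

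Nlrc5 (chr8:94434356-94527272, plus strand) varied more between clones, relative to its mean, than any other member. WT clones 28, 29 and 36 had 361, 144 and 305 normalized counts, and R98S clones 11, 13 and 35 had 231, 296 and 27.8. The last value rested on 30 reads and was 9.74-fold below the WT mean, whereas the other R98S clones lay within the WT range. The means were 270.2 ± 113 and 185 ± 139.9 (SD, n = 3), which is -1.01 on the log2 scale (SE 0.81, adjusted p = 0.431 by limma). Without R98S clone 35 the log2 fold change was 0.055 (adjusted p = 0.942), so its direction rested on that clone. In the count models it was -0.54 with edgeR and with DESeq2.

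R98S clone 35, with the least Nlrc5, was not the lowest R98S clone for H2-K1, H2-D1, H2-Q7, H2-T23, Tap2, Tapbp or Erap1. It was the highest of all 6 clones for H2-T23, Tap2, Tapbp and Erap1. It was the lowest R98S clone for B2m and Tap1. Across the 6 clones, the log2 level of Nlrc5 had a Pearson r of -0.37 with the mean standardised level of the other 9 members. The same measure was 0.92 for H2-K1, 0.85 for Tap2, 0.84 for H2-T23, 0.77 for H2-D1, 0.70 for Tapbp and 0.67 for Tap1. It was 0.40 for B2m, 0.30 for H2-Q7 and 0.19 for Erap1. These values describe 6 libraries from 2 genotypes and include the difference between the genotypes. The part of Nlrc5 in the levels of the other members was not tested.

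Erap1 (chr13:74639568-74693201, plus strand) was nearly constant in WT cells, with 1099.8, 1132 and 1139 normalized counts in clones 28, 29 and 36. R98S clones 11, 13 and 35 had 1229, 958 and 1778, one below and the other two above all WT clones. The means were 1123 ± 20.8 and 1322 ± 418 (SD, n = 3), which is 0.19 on the log2 scale (95% interval -0.29 to 0.66, adjusted p = 0.569 by limma). Without R98S clone 35 it was -0.050 (adjusted p = 0.849). Erap1 shares 834 exonic bases with Cast on the opposite strand, which fell from 2811 ± 378 to 2037 ± 405 (-0.48 on the log2 scale, adjusted p = 0.0903 by limma).

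Levels were compared between members per kb of exon, using the merged exons of each gene in GENCODE M21. B2m was the most abundant by far, with a mean of 8118 normalized counts per kb over the 6 clones. H2-D1 followed with 1343 per kb, or 16.5% of B2m, and the ranges of these genes did not overlap with each other or with the next. Tap2 (617 per kb), H2-K1 (542), Tapbp (441), H2-T23 (314), Tap1 (260, range 214 to 294) and Erap1 (168) came next. Each overlapped the gene after it in its range over the clones, with Erap1 as the exception. Nlrc5 (26.8 per kb, range 3.27 to 42.6) and H2-Q7 (26.3, range 22.2 to 31.2) were lowest and could not be ordered. The order within a clone was mostly the same, as Tap2 exceeded H2-K1 in 5 of 6 clones, H2-K1 exceeded Tapbp in 5 of 6, and H2-T23 exceeded Tap1 in 4 of 6. In WT clones 28, 29 and 36, H2-T23 was at 214, 218 and 221 per kb and Tap1 at 228, 214 and 282. H2-T23 was thus above Tap1 in WT clone 29 and in all R98S clones, but not in WT clones 28 and 36.

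**Figure D3:**
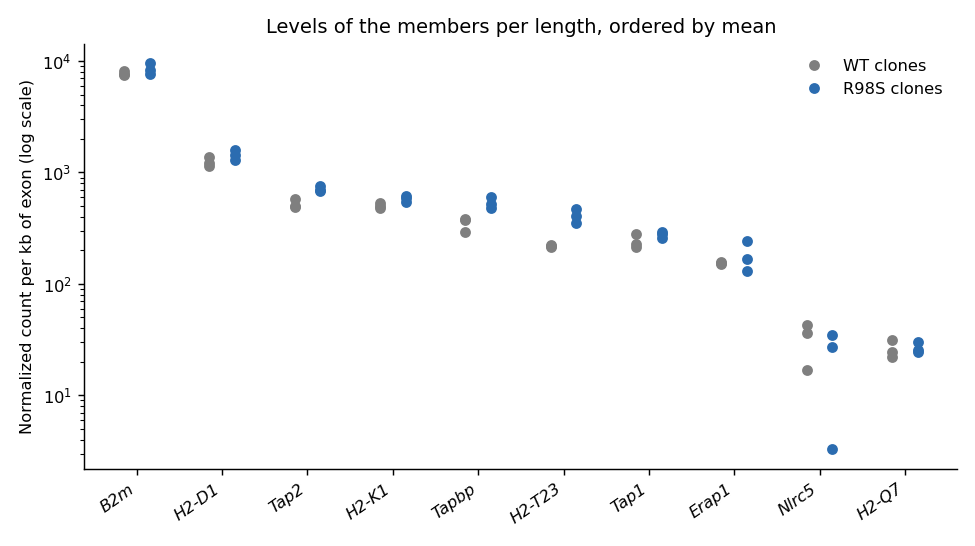
Normalized count per kb of exon (vertical axis, log scale) of the members in WT clones (grey) and R98S clones (blue), ordered by their mean over all clones. B2m stands at 8118 on average and H2-Q7 at 26.3, a 308-fold difference.

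Class I genes resemble each other, and reads that fit several copies were removed by the mapping filter, so the levels of heavy chains are uncertain. Of all stretches of 50 bases (a length chosen here, since the read length is not given in the sources used here) in the annotated transcripts, the share also present in a transcript of another gene was 26.5% for H2-Q7 (most often H2-Q10), 14.5% for H2-T23, 12.8% for H2-D1 and 9.63% for H2-K1. It was 0% for B2m and 0.339% for Nlrc5. For Tapbp (23.2%), Tap2 (11.6%) and Erap1 (10.7%) the main partners were Gm19412, Gm15821 and Cast on the opposite strand, whose reads can be told apart only if strand was used in counting. Gm19412 was not among the listed genes, Gm15821 had at most 34.7 normalized counts in any library, and Cast had up to 3241. The reference genome is of the C57BL/6 strain while Ba/F3 is catalogued as a BALB/c line, and the effect of differing class I alleles on mapping was not tested.

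Among the other class I genes, 12 of 38 listed genes passed the filter, with 2 called higher, 0 lower and a median of 0.074 on the log2 scale, against 10.7% higher and 13.1% lower of all tested genes. Mr1 was lower at an unadjusted p under 0.05, and edgeR and DESeq2 each called 2 higher and 0 lower. H2-Q4, a nonclassical heavy chain gene between H2-D1 and H2-Q7, stood at 6.14, 7.52 and 5.00 normalized counts in clones 28, 29 and 36 (WT) and at 65.7, 73.5 and 27.8 in clones 11, 13 and 35 (R98S). It is 1 of the 2 called genes, but it passed the filter only through the R98S clones, so that it had to differ, and its values are given as a description with no test. H2-T22, the neighbour of H2-T23, rose from 249.5 ± 40.0 to 382 ± 26.5 (SD, n = 3), which is 0.62 on the log2 scale (adjusted p = 0.0450 by limma). Its call was lost without WT clone 28 (adjusted p = 0.125), WT clone 29 (0.1502) or R98S clone 11 (0.130), and with the shift of neighbouring genes removed (0.1005). The remaining 26 class I genes had at most 10.21 normalized counts in any library.

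The 7 MHC members lie within 2117 kb, from the start of Tapbp to the end of H2-T23 (chr17:33915899-36032855). Of 88 other tested genes in that interval, 11 (12.5%) were called higher and 10 (11.4%) lower, with a median log2 fold change of 0.15. On the rest of chromosome 17, 8.56% of 479 tested genes were called higher and 12.1% lower, with a median of -0.012. The 30 nearest tested genes around Tapbp had a median of 0.15 on the log2 scale, against 0.20 around each of H2-K1, Tap1, Tap2 and H2-T23, and -0.036 around H2-D1 and H2-Q7. Each set of neighbours left out only the gene itself, so around the 7 MHC members it held other members too. H2-K1 and Tap1 differed by about as much as the median of the genes around them, and with that shift removed their log2 fold changes were -0.033 and -0.0026. H2-T23 kept 0.73 (adjusted p = 0.0103) and Tapbp 0.45 (adjusted p = 0.0704). Around Nlrc5 on chromosome 8 the neighbours had a median of -0.56, and with that shift removed its log2 fold change was -0.47 (adjusted p = 0.741 by limma).

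**Figure D4:**
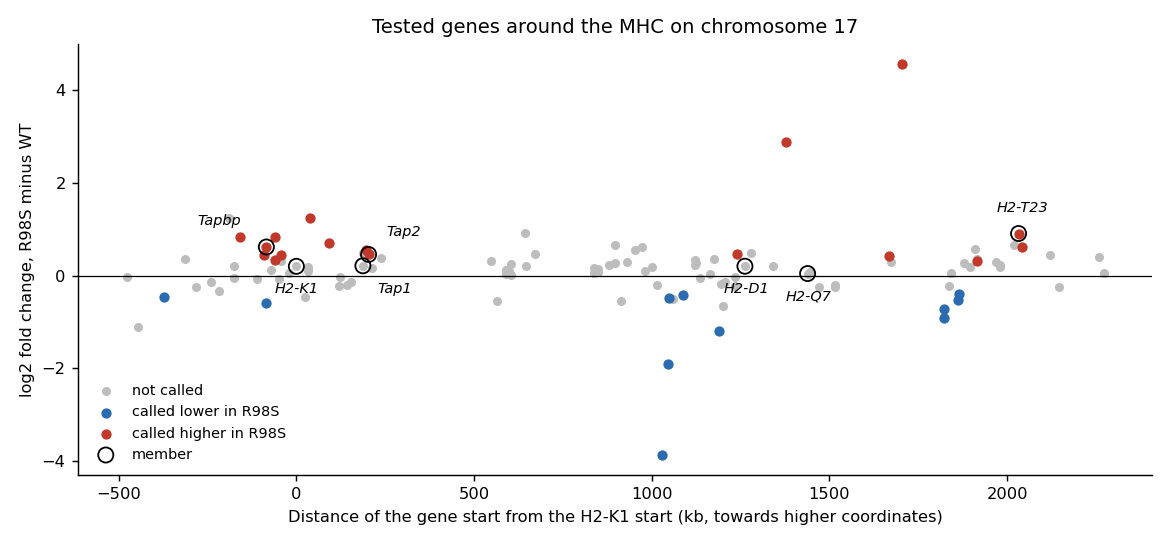
Log2 fold change (vertical axis, R98S minus WT) of tested genes on chromosome 17 against the distance of their start from that of H2-K1 (horizontal axis, kb), in red where called higher, blue where called lower and grey elsewhere, with the 7 members ringed. Genes called higher and genes called lower both occur along the stretch, and the members called higher sit at -84.4 kb (Tapbp), 203 kb (Tap2) and 2033 kb (H2-T23).

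The proteasome supplies the peptides. Of 12 genes of the immunoproteasome, its activators and their counterparts, all tested, 5 were called higher and 0 lower, against 10.7% and 13.1% of all tested genes, and the median was 0.35 on the log2 scale. None was lower at an unadjusted p under 0.05. EdgeR called 5 higher and DESeq2 7, and neither called one lower. Psme2 and Psme1 encode the subunits of PA28, the activator that interferon induces. Psme2 stood at 1145, 1409.9 and 1279.97 normalized counts in clones 28, 29 and 36 (WT) and at 2539, 2759.8 and 2031 in clones 11, 13 and 35 (R98S). All R98S clones lay above all WT clones, and the mean rose 1.91-fold (0.93 on the log2 scale, SE 0.14, adjusted p = 0.00714 by limma). Psme1 rose from 2262 ± 110.5 to 3607 ± 722 (SD, n = 3), which is 0.66 on the log2 scale (adjusted p = 0.0244 by limma).

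Psmb8, Psmb9 and Psmb10 encode the catalytic subunits that define the immunoproteasome. Psmb8, which lies between Tap1 and Tap2, rose from 1783 ± 186 to 2607 ± 389 (0.54 on the log2 scale, adjusted p = 0.0393 by limma). Psmb10 rose from 558 ± 85.5 to 824 ± 41.7 (0.57 on the log2 scale, adjusted p = 0.0350 by limma). Psmb9, at 927 ± 218 in WT and 1274 ± 147 in R98S cells, did not pass the threshold. The call of Psmb10 was lost without WT clone 28 (adjusted p = 0.140) or 29 (0.104), and that of Psmb8 without WT clone 28 (0.127), WT clone 29 (0.129) or R98S clone 11 (0.122) and with the shift of neighbours removed (0.112). The fifth gene called was Psme3, the nuclear activator PA28 gamma, named after its values were seen, with a log2 fold change of 0.35 (adjusted p = 0.0428 by limma). Whether the call of Psme3 held in the alternative fits was not examined. Psmb5, Psmb6 and Psmb7, the catalytic subunits of the constitutive proteasome, had log2 fold changes of 0.35, 0.27 and 0.21 and were not called (adjusted p = 0.122, 0.215 and 0.209 by limma).

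**Figure D5:**
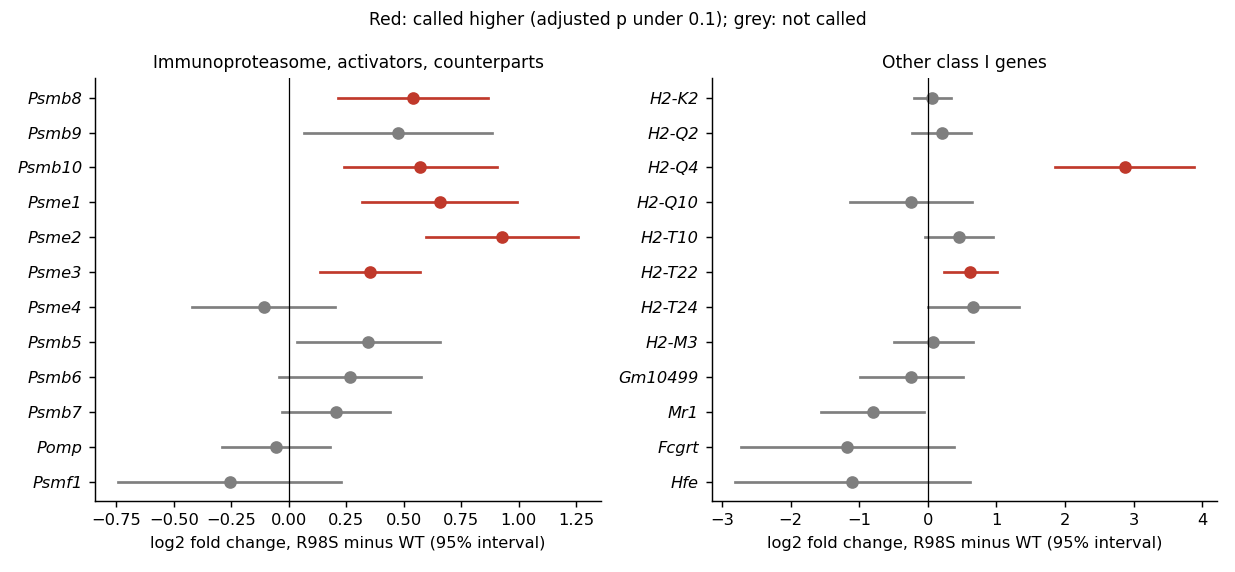
Log2 fold change (horizontal axes, R98S minus WT) with 95% interval of the tested proteasome genes (left) and of class I genes other than the members (right), in red where called higher and grey where not called. Psme2 (0.93) has the largest value on the left. H2-Q4 on the right passed the filter only through its R98S clones, and the horizontal scales differ.

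Of 14 chaperones, enzymes and vesicle proteins that fold or carry class I molecules in the ER, all tested, 3 were called lower and 0 higher, against 13.1% and 10.7% of all tested genes, and their median was 0.059 on the log2 scale. At an unadjusted p under 0.05, 2 were higher, and edgeR called 0 and DESeq2 2 of them higher. P4hb, protein disulfide isomerase, fell from 45296 ± 6274 to 23963 ± 6741 (SD, n = 3, -0.95 on the log2 scale, adjusted p = 0.0220 by limma). Sec22b, a SNARE protein of ER vesicles, fell from 2522 ± 205 to 1846 ± 194 (-0.45 on the log2 scale, adjusted p = 0.0404 by limma), a call lost without WT clone 28 (adjusted p = 0.105) or 29 (0.142) and with the neighbours' shift removed (0.106). Calr, calreticulin of the peptide loading complex, fell from 25422 ± 1965 to 19041 ± 3234 (-0.43 on the log2 scale, adjusted p = 0.0878 by limma). This call was lost in 9 of 17 alternatives, and the log2 fold change was -0.040 with the shift of neighbouring genes removed. Pdia3, the partner of tapasin in that complex, had a log2 fold change of 0.35 (adjusted p = 0.127 by limma).

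Of 11 tested peptidases of the cytosol and endosomes, 1 was called higher and 0 lower, against 10.7% and 13.1% of all tested genes. Their median was 0.042 on the log2 scale. None was lower at an unadjusted p under 0.05 or in edgeR or DESeq2. That gene was Rnpep, an aminopeptidase, which rose from 736 ± 111 to 1148 ± 269.6 (SD, n = 3, 0.62 on the log2 scale, adjusted p = 0.0733 by limma), with overlapping groups. Its call was lost in 8 of 17 alternatives, with adjusted p-values of up to 0.2096, among them without any single clone except R98S clone 35.

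Of 33 tested regulators of class I genes, namely genes of the RFX and NF-Y complexes, interferon and NF-kappaB signaling and the Polycomb complex PRC2, 3 were called higher and 4 lower, with a median log2 fold change of -0.13. Both counts are near the shares of all tested genes (10.7% higher and 13.1% lower). At an unadjusted p under 0.05 by limma, 3 were higher and 6 lower. EdgeR called 3 higher and 4 lower, and DESeq2 3 higher and 5 lower. Among those with the largest change, Nfkbia, the inhibitor of NF-kappaB, fell from 1766 ± 909 to 415 ± 110.5 (SD, n = 3, -1.97 on the log2 scale, adjusted p = 0.0177 by limma). Stat2, which carries signals of type I interferon receptors, fell from 947 ± 89.3 to 526 ± 95.7 (-0.86 on the log2 scale, adjusted p = 0.0132 by limma). Ifngr2, a chain of the interferon gamma receptor, fell from 1260.3 ± 437 to 666 ± 83.5 (-0.86 on the log2 scale, adjusted p = 0.0605 by limma). That call was lost in 7 of 17 alternatives, among them without any single clone except WT clone 36. Eed, a core subunit of PRC2, rose from 1176 ± 78.0 to 2166 ± 211 (0.88 on the log2 scale, adjusted p = 0.00392 by limma). The other 3 called genes, named after their values were seen, were Socs1 (0.82, adjusted p = 0.00739 by limma), Creb1 (0.46, adjusted p = 0.0710) and Ifnar2 (-0.45, adjusted p = 0.0916). Whether the calls of Socs1, Creb1 and Ifnar2 held in the alternative fits was not examined.

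MHC class II molecules present peptides taken up from outside the cell. Of their 11 genes 6 passed the filter, with 1 called higher and a median of -0.033 on the log2 scale, and H2-Ab1 and H2-Eb1, which encode chains of class II molecules, had at most 0.925 and 2.04 normalized counts. H2-Oa, a chain of the peptide-editing regulator H2-O, rose from 436 ± 55.6 to 707 ± 77.4 (SD, n = 3, 0.70 on the log2 scale, adjusted p = 0.0219 by limma), and 0 were called lower. None was lower at an unadjusted p under 0.05, in edgeR or in DESeq2. Over all these lists, 12 of 88 tested genes were called higher (13.6%) and 7 lower (7.95%), against 10.7% and 13.1% of all tested genes, H2-Q4 among the 12. Without WT clone 28 these counts were 6 and 4, without WT clone 29 they were 6 and 3, and without R98S clone 11 they were 8 and 4.

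The genes whose pattern over the 6 clones was most like the mean of the 10 members were Itgb1bp1, S1pr4, Fntb, Umps and Pigk. Their Pearson r with that mean lay between 0.988 and 0.998. None of the 5 is on a list used here. As the members' mean separated the genotypes, a difference between WT and R98S clones was built into this choice and is not tested for these genes. These correlations describe 6 libraries and include the difference between the genotypes.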

How the data were processed

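Polyadenylated RNA of 6 Ba/F3 clones was made into strand-specific libraries. The authors removed ribosomal and transfer RNA reads with Bowtie2, aligned the rest to mm10 with TopHat, kept primary alignments with a mapping quality of at least 10 and counted reads on exons. HTSeq is named in the submitters' processing notes, and the strand setting and annotation are not given in the sources used here. What they deposited is, for each gene, a signal in the form of reads scaled by DESeq2 size factors. Dividing by the smallest step of a library gave whole reads for 100% of its values (tolerance 0.01). No 2 libraries of a group looked like 1 library deposited again, since the smallest chi-square between them was 17.1 times its degrees of freedom, which covers counting error only.

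Groups came from the clone labels. R98S was compared with WT by limma 3.58.1 in R 4.3.3. The values were log2-transformed after adding 1, the variance followed the intensity, and the test covered genes with a mean of at least 10, two-sided, with Benjamini-Hochberg adjustment over all 11550 tested genes and a threshold of 0.1. Fold changes on this scale are understated for weak genes. Alternatives were pseudocounts of 0.5 and 5, no filter or a minimum of 50, scaling to the same total or upper quartile, no trend, a threshold of 0.05, each clone left out, edgeR 4.0.16 and DESeq2 1.42.0 on the recovered reads, and subtraction of each neighbourhood's median difference, taken over 30 tested genes (GENCODE M21, GRCm38). Named were all members, Rpl10, up to 4 called genes with the largest change from each pathway list, and the 5 genes with a mean of at least 100 and the pattern most like the members. The members and lists were chosen with earlier results of these data known.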

Additional observations from a re-analysis of the deposited data

How the results depend on the processing

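No paired analysis was possible because no clone number occurs in both genotypes. H2-T23 kept its call in all 17 alternative fits, Tapbp in 16 and Tap2 in 15, and the remaining 7 members were called in none. Across the fits that each left out 1 clone, the count of members called higher ranged from 1 (without WT clone 28) to 3, and that of members called lower was 0 throughout. The count of all genes called, 2755, lay between 1327, with WT clone 28 left out, and 3219, with R98S clone 13 left out, and it was 1464 without WT clone 29 and 1578 without R98S clone 11, and was 1722 at an adjusted p under 0.05. For the pathway lists, 6 to 12 genes were called higher and 3 to 9 lower when 1 clone was left out, and 4 were called lower both without the intensity trend and at an adjusted p under 0.05, against 7. Directions reversed only for genes that were not called. With the median shift of neighbouring genes removed, the log2 fold change was -0.033 for H2-K1, -0.052 for B2m, -0.0026 for Tap1, -0.011 for H2-Q7 and 0.039 for Rpl10. With 1 clone left out it ranged from -0.050 to 0.40 for Erap1, -1.63 to 0.055 for Nlrc5, -0.062 to 0.18 for H2-Q7 and -0.29 to 0.13 for Rpl10. Fits with fewer clones have less power, and other causes were not tested. Of 526 comparisons of single genes, 462 kept direction and call, 50 lost the call, 2 gained it and 12 reversed. Among calls over all genes, 45.0% were higher, and 52.6% with libraries scaled to the same upper quartile. Depth limits the weakest members, as H2-Q7 had 88 to 136 reads per library and Nlrc5 had 30 in R98S clone 35.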

Other observations

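Irf8, a lymphoid and myeloid interferon regulatory factor, was the single regulator below the filter on low values. Its normalized counts were 2.05, 2.15 and 3.00 in clones 28, 29 and 36 (WT) and 12.2, 15.3 and 9.25 in clones 11, 13 and 35 (R98S), and it was not tested. The choice to name it was made after its values were seen. Of the class I genes outside the MHC, Mr1, which presents vitamin metabolites, stood at 348, 451 and 540.4 normalized counts in clones 28, 29 and 36 (WT) and at 259, 395 and 155 in clones 11, 13 and 35 (R98S), with overlapping groups (-0.81 on the log2 scale, adjusted p = 0.136 by limma). It was also named after its values were seen.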
